A study of Homo sapiens with 4 samples.

Results

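The TGF-beta pathway genes examined here were 10 genes chosen by name, with earlier results of these data known. They were the ligands TGFB1 and TGFB2, the receptors TGFBR1 and TGFBR2 and the signal carriers SMAD2, SMAD3 and SMAD4. The inhibitor SMAD7 and the target genes ID1 and ID3 completed the set. All 10 were found by symbol in a deposited transcript table, where they account for 22 of 44578 listed transcripts and 10 of 23217 gene symbols. The table compares LV-M100 cells, a clone of the breast cancer line MDA-MB-231 with low cell-to-cell variability, after transfection with control siRNA or with siRNA against SNRNP40, a component of the U5 particle of the spliceosome. The controls were NC1 for replicate 1 and, for replicate 2, BLOCK-iT Fluorescent Oligo. SNRNP40 replicates 1 and 2 each received a different SNRNP40 siRNA, and total RNA was taken 48 h later and depleted of ribosomal RNA. The table gives 1 FPKM value (fragments mapped, scaled to transcript length and library size) per transcript and condition, in which both libraries are pooled. Without values per library, no value here has a replicate error and no difference was tested, and what 1 library or 1 siRNA did cannot be told apart from what SNRNP40 depletion did. Depth is unknown, since the table holds no read counts.

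TGF-beta ligands are secreted in latent form and, once freed, bind the type II receptor TGFBR2, which activates the type I receptor TGFBR1. The active receptor phosphorylates SMAD2 and SMAD3, which join SMAD4 and enter the nucleus to control transcription, while SMAD7 is induced by the pathway and feeds back to block the receptor. The related bone morphogenetic proteins (BMPs) act through SMAD1, SMAD5 and SMAD9, and ID1 and ID3, inhibitors of basic helix-loop-helix transcription factors, are known targets of that branch. In breast carcinoma cells the pathway can restrain growth early and favour invasion and metastasis later.

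The siRNA strands are shown because they define the only perturbation compared; they are given 5′ to 3′ as the labels list them, in lower case throughout.
siSNRNP40 #1: ggaauagacaaugauauc
siSNRNP40 #2: ggauuugaccgacugaua

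The windows at the 5′ ends of SMAD7, ID1 and ID3 are shown because these are the 3 members whose own transcription is a readout of SMAD activity. Each runs from 250 bases before to 50 bases after the outermost start given by the table's hg19 coordinates, read from GRCh37, which shares those coordinates, along the strand of the gene. Capitals mark the letters searched on both strands: GTCTAGAC, the palindromic SMAD-binding element; CAGAC, which reads as GTCTG when it lies on the other strand, the shorter SMAD box; and GGCGCC, a GC-rich element bound by BMP-responsive SMADs. These motifs do not overlap one another in the windows shown.
SMAD7, chr18:46477032-46477331, minus strand: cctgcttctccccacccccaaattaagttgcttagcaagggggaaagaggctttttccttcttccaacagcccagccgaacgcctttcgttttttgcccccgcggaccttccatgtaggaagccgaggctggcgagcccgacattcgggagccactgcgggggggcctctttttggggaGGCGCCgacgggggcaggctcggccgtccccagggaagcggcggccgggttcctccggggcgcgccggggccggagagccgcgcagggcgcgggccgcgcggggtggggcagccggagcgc
ID1, chr20:30192836-30193135, plus strand: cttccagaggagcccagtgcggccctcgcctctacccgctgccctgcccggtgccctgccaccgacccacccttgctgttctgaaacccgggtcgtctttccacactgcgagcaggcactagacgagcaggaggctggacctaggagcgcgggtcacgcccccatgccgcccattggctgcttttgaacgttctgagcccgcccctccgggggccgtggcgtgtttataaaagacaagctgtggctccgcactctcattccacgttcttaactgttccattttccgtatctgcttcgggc
ID3, chr1:23886236-23886535, minus strand: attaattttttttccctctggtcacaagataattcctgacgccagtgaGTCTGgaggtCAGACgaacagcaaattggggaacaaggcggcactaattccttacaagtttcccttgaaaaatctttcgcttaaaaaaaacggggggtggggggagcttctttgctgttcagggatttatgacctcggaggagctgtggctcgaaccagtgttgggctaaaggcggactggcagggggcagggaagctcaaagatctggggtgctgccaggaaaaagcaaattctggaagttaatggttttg

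The SMAD7 window held 1 copy of GGCGCC, at position -71 from the start, and none of the other letters searched. ID3 held 2 copies of CAGAC, at positions -202 and -192, and ID1 held none of the 3 motifs. Over all 18995 genes with such a window, 43.2% held CAGAC, 23.1% held GGCGCC and 0.184% held GTCTAGAC. Among the 10 members, 3 held CAGAC, 3 held GGCGCC and 0 held GTCTAGAC, so neither the SMAD box nor the GC-rich element was in more than 3 of the members' windows. A match is only a run of letters, and elements outside these windows were not searched.

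SNRNP40 itself was at 40.4 FPKM in control cells and at 6.12 after SNRNP40 siRNA, 0.151 times its control level. Of the markers chosen for the MDA-MB-231 line, all 7 mesenchymal and keratin genes were expressed (control FPKM from 116 for CD44 to 750.1 for VIM), and ESR1, PGR, CDH1 and CLDN3, which the line lacks, were below 1 in both conditions. EPCAM (10.6 and 10.0) and GATA3 (1.32 and 1.18), taken as lacking in the line, were above 1. Among markers of other cell types the leukocyte gene PTPRC and the endothelial gene VWF were listed at 0 in both conditions, PECAM1 and ACTA2 lay between 0.922 and 1.202, and only CD68 was clearly present (40.9 and 44.4).

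At the level of whole genes, where FPKM was summed over each gene's transcripts, none of the 10 members differed 2-fold between the conditions. A gene was kept when its mean FPKM over the conditions was at least 1, and 9 of the 10 members were kept, ID3 being the exception. None of the 9 passed an absolute log2 fold change (SNRNP40 siRNA over control siRNA) of 1; the study called transcripts dependent on SNRNP40 past a log fold change of 1 without giving the base, which is taken here as 2. Among all 12334 genes kept, 1.47% did. None of them passed 0.5 either, against 10.3% of all genes kept. Within this range 8 of the 9 were lower after SNRNP40 depletion and 1, SMAD3, was higher, while 49.5% of all genes kept were lower. The median log2 fold change was -0.23 for the 9 members kept against 0.0034 over all genes kept. The lower value of ID1 among these 8 was too small to have a direction, and 7 members were lower by more than 0.1 on the log2 scale, as were 33.9% of all genes kept. The median absolute log2 fold change was 0.230 for the 9 members kept and 0.170 for all genes kept. The members were chosen with earlier results of these data known, so these counts are descriptions and are not read as an excess.

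**Figure D1:**
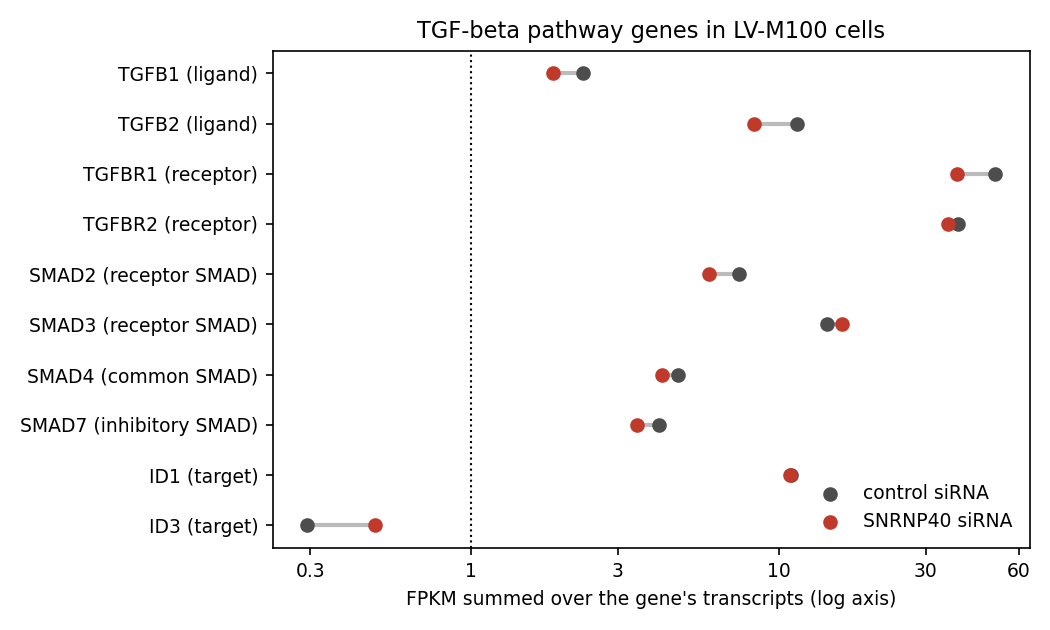
FPKM summed over the transcripts of each TGF-beta pathway gene (log axis) with control siRNA (grey) and SNRNP40 siRNA (red), each point a pooled value of 2 libraries with no error available. The dotted line is the filter at 1. Receptors are the most abundant, from 35.4 to 50.4, ID3 lies below the filter in both conditions, and only SMAD3 and ID3 have the SNRNP40 siRNA value to the right.

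The ligand messages were present at moderate to low levels, and both were lower after SNRNP40 depletion. TGFB2 (chromosome 1 of hg19, 218517538 to 218617961) was at 11.4 FPKM in control cells and at 8.30 after SNRNP40 siRNA. This log2 fold change of -0.46 was the largest decrease among the members kept, and 8.81% of the 4507 genes in its band of mean FPKM, 5 to 20, differed by that much or more, up or down. TGFB1 (chromosome 19, 41836812 to 41859831), the most studied form of the ligand, had an FPKM of 2.32 and 1.85 (log2 fold change -0.32). At such low levels differences of this size were common: 38.4% of the 3775 genes in the band from 1 to 5 reached it. TGFB2 was the more abundant of these ligand messages, at 4.92 times the FPKM of TGFB1 with control siRNA and 4.48 times with SNRNP40 siRNA. The locus of TGFB2 overlaps that of LOC728463 in the table, and no other member shares its locus with another listed gene.

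The receptors were the most abundant members. TGFBR1 (chromosome 9, 101867412 to 101916473), the type I receptor kinase that phosphorylates SMAD2 and SMAD3, was at 50.4 FPKM in control cells, and its mean over both conditions ranked above that of 84.2% of genes kept. With SNRNP40 siRNA it was 38.0, a log2 fold change of -0.41, which 7.86% of the 3268 genes in the band from 20 to 100 reached or passed. TGFBR2 (chromosome 3, 30647994 to 30735633), the type II receptor that binds the ligand, had 38.2 and 35.4 (-0.11), a difference that 58.1% of genes at that level matched or exceeded. The ratio of TGFBR1 to TGFBR2 was 1.32 with control siRNA and 1.07 with SNRNP40 siRNA, so the type I receptor message was ahead in both conditions.

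The receptor-regulated SMADs differed in direction. SMAD2 (chromosome 18, 45359466 to 45457515) had an FPKM of 7.41 and 5.93 (log2 fold change -0.32), a size reached by 19.1% of genes at its level. SMAD3 (chromosome 15, 67358195 to 67487533), which unlike the usual form of SMAD2 binds DNA directly, had 14.3 and 16.0 (0.16), a size that 49.5% of genes at its level reached. The ratio of SMAD3 to SMAD2 went from 1.93 to 2.69. SMAD4 (chromosome 18, 48556583 to 48611411), the shared partner of all receptor-regulated SMADs, had 4.69 and 4.17 (-0.17). The inhibitor SMAD7 (chromosome 18, 46446223 to 46477081) had 4.07 and 3.47 (-0.23) when its transcripts were summed. For SMAD4 and SMAD7, differences of this size or more were seen in 63.4% and 52.7% of genes at their level.

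The target genes gave no common direction. ID1 (chromosome 20, 30193086 to 30194317) had an FPKM of 10.9 in both conditions (log2 fold change -0.0070), the smallest difference among the members. ID3 (chromosome 1, 23884421 to 23886285) had 0.294 and 0.486, 1.66 times its control level, but both values lie below the filter, and with 1 added to each value the log2 fold change went from 0.73 to 0.20. ID1 was the more abundant of the pair, at 37.2 times the FPKM of ID3 with control siRNA and 22.4 times with SNRNP40 siRNA. Both ratios rest on ID3 values below the filter.

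**Figure D2:**
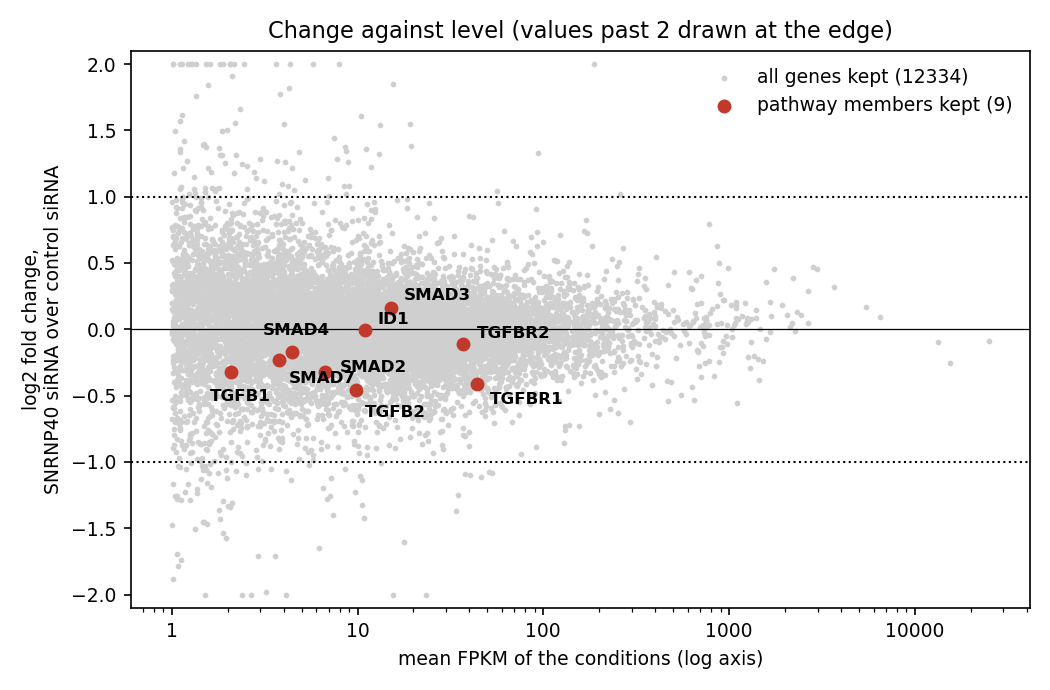
Log2 fold change (SNRNP40 siRNA over control siRNA) of the 12334 genes kept against their mean FPKM (log axis), with the 9 TGF-beta pathway genes kept in red and dotted lines at 1 and -1. Every red point lies between -0.46 and 0.16, inside the cloud of other genes, whose scatter widens towards low FPKM.

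The scatter of all genes sets the scale for these differences. The median absolute log2 fold change was 0.247 in the FPKM band from 1 to 5, 0.159 in that from 5 to 20 and 0.138 in that from 20 to 100. TGFB2 and TGFBR1 were the members farthest from 0 relative to genes of their own level. TGFB1 and SMAD2 also lay farther from 0 than the typical gene of their level, and SMAD3 barely so, at 0.161 against 0.159. TGFBR2, SMAD4, SMAD7 and ID1 lay nearer to 0 than the typical gene of their level.

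Single transcripts differed more than whole genes in SMAD7 and SMAD3. Of the 22 member transcripts, 12 had a mean FPKM of at least 1 and an FPKM above 0 in both conditions, and 3 of these 12 passed an absolute log2 fold change of 1, 1 higher and 2 lower. Among all 16691 transcripts kept on the same terms, 10.5% passed. SMAD7 transcript 2 and SMAD3 transcript 2 were kept only through the condition in which they were high, which favours large changes, so the count of 3 is a description and is not read against that share. That share was 16.9% for transcripts of genes with several listed transcripts and 1.83% for those of genes with a single one, and all 3 member transcripts belong to genes with 4. The transcript model divides shared fragments among isoforms, so these values depend on that division as well as on the RNA. The table gives no exon structure, and the transcripts are numbered here by falling mean FPKM within a gene.

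SMAD7 had the largest shift. The FPKM of transcript 1 was 3.24 with control siRNA and 1.081 with SNRNP40 siRNA (log2 fold change -1.58), and that of transcript 2 was 0.386 and 1.79 (2.21); with 1 added to each value the changes were -1.03 and 1.01. Transcript 1 held 79.7% of the SMAD7 FPKM with control siRNA and 31.2% with SNRNP40 siRNA, and transcript 2 held 9.50% and 51.7%. Of the low transcripts, transcript 3 went from 0.00028 to 0.594, and transcript 4 from 0.437 to a listed 0. The leading SMAD7 transcript was thus a different one in each condition, while the sum over the 4 changed by only -0.23 on the log2 scale. The share shift, the part of the FPKM that would have to move between transcripts to turn the control shares into the others, was 59.3 percentage points for SMAD7. The median over the 5282 genes kept with several transcripts was 7.66 points, and 3.45% of them shifted at least as much. Low genes with as many transcripts shifted more often: among the 182 genes with 4 transcripts in the band from 1 to 5 the median was 19.3 points and 11.5% reached the value of SMAD7.

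SMAD3 was nearer to a single transcript after SNRNP40 depletion. Its transcript 1 had 11.1 FPKM with control siRNA, 77.4% of the gene, and 15.6 with SNRNP40 siRNA, 97.7% of the gene (log2 fold change 0.50). Transcript 2 had 2.60 and 0.371 (-2.81), or 18.2% and 2.32% of the gene. Transcripts 3 and 4 were lower still, at 0.625 and 0.0046 with control siRNA and at 0.00036 and a listed 0 with SNRNP40 siRNA. The share shift was 20.3 points, which 33.7% of the 252 genes with 4 transcripts in the band from 5 to 20 matched or exceeded.

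The other members kept their main transcript. TGFBR2 transcript 1 had an FPKM of 32.2 and 31.8 (log2 fold change -0.017), so most of the difference in TGFBR2 lay in transcript 2, at 6.004 and 3.52 (-0.77). ID1 transcript 1 had 9.79 and 10.6 (0.12), and transcript 2, which was not kept, 1.14 and 0.229. SMAD2 transcript 1 had 6.23 and 5.16 (-0.27) and held 84.1% and 86.9% of the gene. TGFBR1 and TGFB2 were each carried by 1 transcript: TGFBR1 transcript 1 had 50.1 and 38.0 (-0.40) and TGFB2 transcript 2 was listed at 0 in both conditions. In all, 4 member transcripts were listed at 0 in exactly 1 condition, each time with SNRNP40 siRNA, and their control FPKM was at most 0.437. Of all 44578 transcripts listed, 8.91% were at 0 with SNRNP40 siRNA only and 4.44% with control siRNA only.

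**Figure D3:**
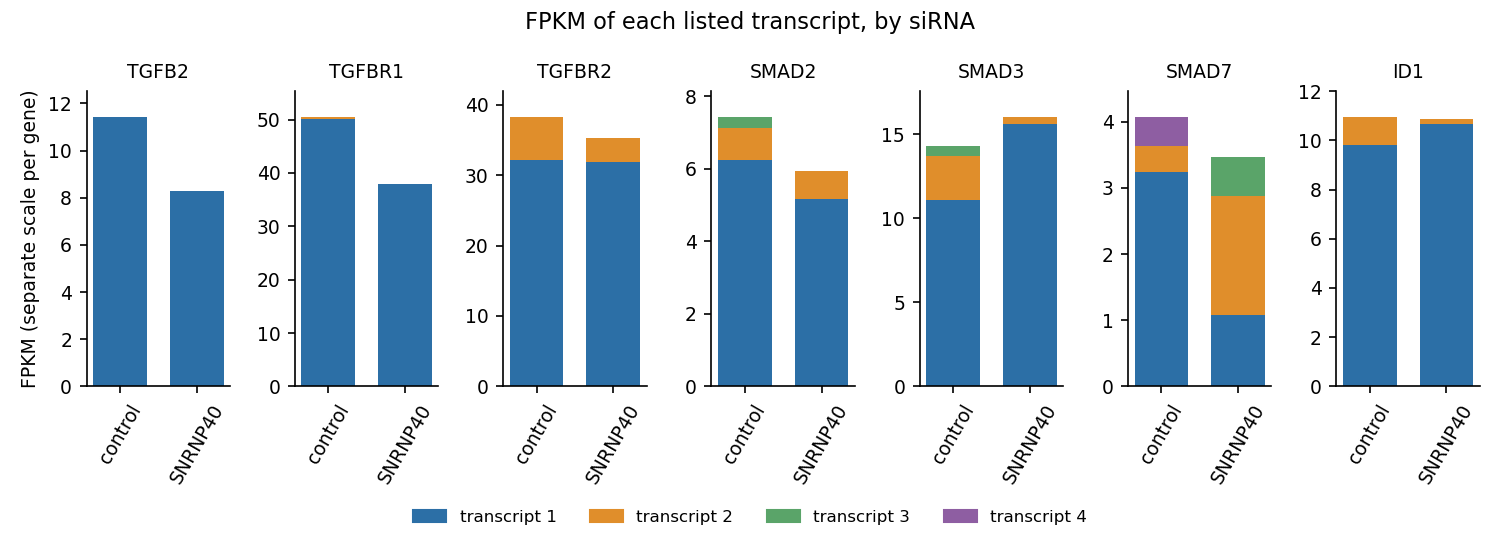
FPKM of each listed transcript, stacked within its gene, with control siRNA and SNRNP40 siRNA for the 7 TGF-beta pathway genes with several transcripts; each gene has its own linear scale from 0. In SMAD7 transcript 1 gives way to transcripts 2 and 3 at a similar total, in SMAD3 the bar becomes nearly all transcript 1, and TGFB2 and TGFBR1 shorten as single transcripts.

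The surroundings of the members were described with 9 lists holding 123 other genes of the pathway, of which 122 were listed and 78 kept. Among these 78, 35 were higher and 43 lower after SNRNP40 depletion, with a median log2 fold change of -0.050, and 3 passed an absolute log2 fold change of 1: TGFB3 higher, BMPR2 and BHLHE40 lower. Among all genes kept, 1.47% passed 1. With 1 added to each value none of the 3 listed genes passed, at 0.62, -0.94 and -0.97. The number of all genes past 1 fell likewise, from 181 to 74. Past 0.5 there were 4 higher and 9 lower, 16.7% of those kept against 10.3% of all genes kept. A few genes stand in 2 of the lists. TGFB3 was kept only through its SNRNP40 siRNA value, and the lists were chosen with earlier results of these data known. For these reasons, and with pooled libraries, the shares are descriptions and are not read as an excess.

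In the list of other ligands 4 of 15 genes were kept, among them BMP1, which is not a ligand. All 4 were at or above their control value, with a median log2 fold change of 0.22. This direction rested on the filter, since with a mean FPKM of 0.1 as the limit the median was -0.24. BMP4, the dominant BMP message, had an FPKM of 95.2 and 95.3. TGFB3, the third TGF-beta ligand, went from 0.690 to 1.60 (log2 fold change 1.22) and was kept only through the SNRNP40 siRNA value. BMP1, a protease despite its name, had 4.10 and 5.02 (0.29), and the growth factor GDF11 1.05 and 1.16 (0.15). Ligand storage and activation gave 7 genes kept of 12, with 2 higher and 5 lower. LTBP1, which tethers latent TGF-beta to the matrix, went from 32.1 to 21.6 (-0.57) and LTBP2, of the same family, from 3.54 to 2.60 (-0.45). THBS1, which can free the ligand from latency, stayed at 150.4 and 149.5, and ITGAV, the alpha subunit of the integrins that do so, had 65.0 and 53.2 (-0.29). Fibrillin FBN1 was higher, at 3.01 and 4.24 (0.49).

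The other receptors differed from one another. Of the 9 genes kept in their list, which also holds the receptor-binding protein FKBP1A, 6 were higher and 3 lower. BMPR2, the type II BMP receptor, was at 11.6 FPKM in control cells and at 5.58 after SNRNP40 siRNA (log2 fold change -1.05) with a single listed transcript, and had the largest decrease among the receptors kept. The type I receptor ACVR1 went from 5.98 to 3.54 (-0.76) and BMPR1A from 22.2 to 17.5 (-0.34). ACVR2B, an activin receptor, was higher, at 1.94 and 2.80 (0.53). FKBP1A, which holds type I receptors inactive, was the most abundant of the list and differed by 0.078 on the log2 scale. Of the remaining SMADs only SMAD5, a carrier of BMP signals, was kept, at 24.9 and 24.7 (-0.012), while SMAD1 and SMAD9 stayed below 1 in both conditions.

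Regulators and cofactors of the SMADs were all expressed and little changed. All 27 were kept, 10 higher and 17 lower, with a median log2 fold change of -0.11. SMURF2, a ubiquitin ligase that SMAD7 brings to the receptor, was the most abundant at 188 and 158 (-0.26). PMEPA1, a target gene that in turn restrains SMAD signalling, was the only one past 0.5, at 10.8 and 7.24 (-0.58). TGIF2, a SMAD corepressor, was higher at 9.16 and 12.0 (0.39), and the endosomal protein ZFYVE16 lower at 19.6 and 14.9 (-0.40). The deubiquitinase USP9X (68.9 and 69.4) and the receptor-associated protein STRAP (43.3 and 46.8) differed by 0.012 and 0.11. Among extracellular antagonists 5 of 11 were kept, 3 higher and 2 lower. Follistatin, encoded by FST, which traps activins, went from 3.41 to 5.94 (0.80), and FSTL3, its relative, from 3.66 to 5.19 (0.51). Noggin, encoded by NOG, which traps BMPs, was lower at 45.9 and 33.4 (-0.46). FSTL1 had 50.3 and 63.3 (0.33) and TWSG1, a BMP-binding protein, 35.9 and 29.9 (-0.26).

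Of the SMAD2 and SMAD3 target genes 19 of 25 were kept, 12 lower and 7 higher, with a median of -0.14 and 6 below -0.5 against none above 0.5. Among all genes kept 49.5% were lower, and 10.3% passed 0.5 in either direction. The list does not separate genes that the pathway raises from those it lowers, so its counts give no direction of pathway activity. BHLHE40, a transcription factor with many other inducers, had 9.85 FPKM with control siRNA and 4.53 with SNRNP40 siRNA (log2 fold change -1.12). FN1, encoding fibronectin, went from 34.6 to 21.6 (-0.68) and TGFBI, a matrix protein named for its induction by TGF-beta, from 48.2 to 31.3 (-0.62). Tropomyosin TPM1, an actin-binding protein, had 79.7 and 77.9 (-0.033). Most BMP target genes were too low to follow, with only BAMBI, a decoy receptor, kept of 10, at 3.36 and 4.73 (0.49), and the next most abundant, MSX2 and GATA2, below 1 in both conditions. In the non-SMAD branch 9 of 10 genes were kept and none passed 0.5: ROCK2, a kinase downstream of RHOA, had 66.5 and 50.2 (-0.41), RHOA 214 and 204 (-0.068), and MAP3K7, the kinase TAK1, 16.0 and 13.4 (-0.25). TAB1, the partner of TAK1, was at 2.23 and 2.67 (0.26).

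**Figure D4:**
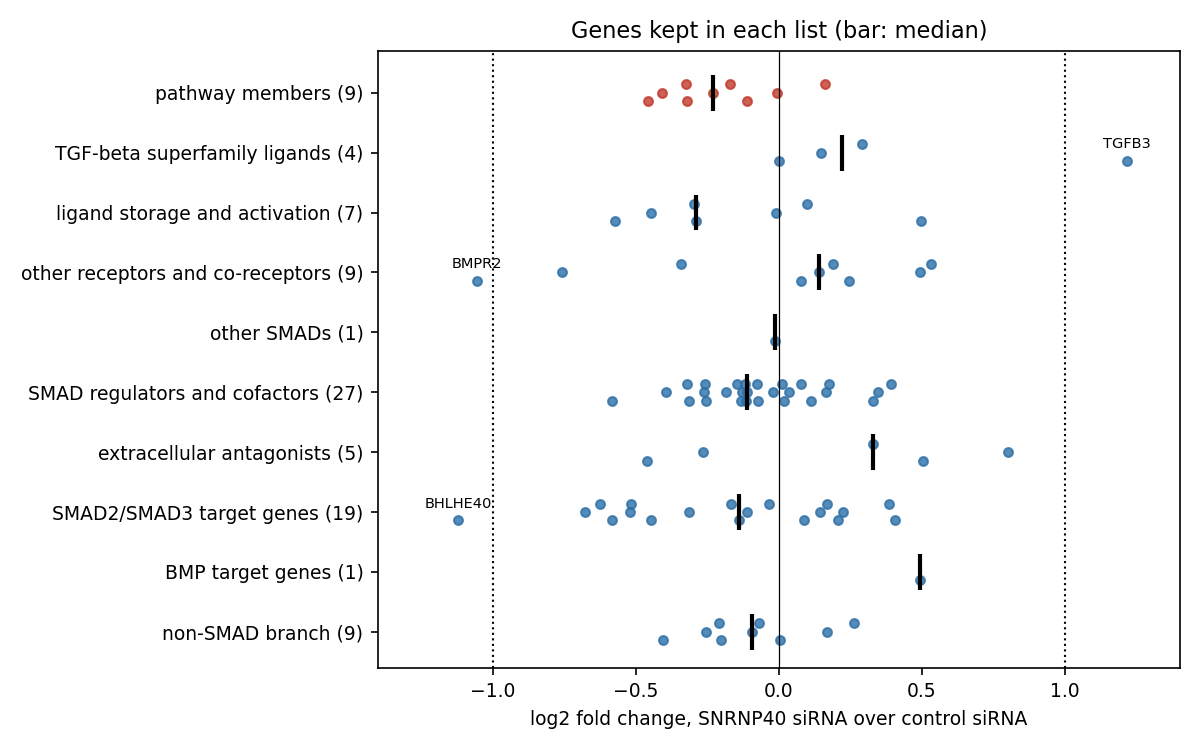
Log2 fold change (SNRNP40 siRNA over control siRNA) of each gene kept, for the TGF-beta pathway members (red) and the 9 lists of other pathway genes (blue), with the number kept in brackets, black bars at the medians and dotted lines at 1 and -1. The members lie between -0.46 and 0.16, and TGFB3, BMPR2 and BHLHE40 are the only points outside the dotted lines.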

How the data were processed

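RNA from 4 libraries of LV-M100 cells, 2 per condition, was examined through the single deposited transcript table. Per the labels and methods, the authors used cutadapt 1.2.1 for trimming, TopHat 2.0.8 for mapping to hg19, and then Cufflinks, cuffmerge and cuffdiff 2.0.2. The deposited FPKM values are the authors' cuffdiff estimates for single transcripts, with the libraries of a condition pooled. Fragments shared by isoforms are divided by a model, which can shift FPKM between transcripts of a gene without changing its sum. The table also holds the authors' own fold changes, test statistics, p-values and q-values, which were not used. Depth is unknown, so no counting interval is given.

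FPKM was summed over all rows of a gene symbol in each condition, and fold changes divide the SNRNP40 siRNA value by the control value, with no pseudocount. Genes or transcripts were kept where FPKM averaged 1 or more and exceeded 0 in both conditions. No test was run, since the columns used give 1 pooled value per condition. Each member is set beside all genes kept, in bands of mean FPKM. The members and the 9 lists were chosen with earlier results of these data known. Of each list the 3 most abundant genes could be named, and the 3 with the largest change among those at 1 FPKM or more under both siRNA treatments. The values of 1 listed gene are not reported here. Strands and gene structures came from GENCODE release 44 on GRCh37. Some genes that share a symbol across several loci were summed over all of them. Alternatives changed the filter, pseudocount, scaling, threshold and summing. The steps were tested on simulated data. The gene-level changes put into those data were larger than those of the members and spared genes with a low control FPKM. Small changes and low genes were therefore not covered. Software was Python 3.11.15, with numpy 2.4.6, pandas 2.3.3 and matplotlib 3.10.9.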

Additional observations from a re-analysis of the deposited data

How the results depend on the processing

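No paired analysis was possible because the table gives 1 pooled value per condition, although the labels number the replicates; for the same reason leaving out a library was not run. Depth is unknown, and genes with 1 to 5 FPKM scatter most. Of 79 values of the 10 members under alternatives, 70 stayed within 0.1 of the reported log2 fold change and 9 moved. The moves include SMAD7 at -1.58 and SMAD3 at 0.50 with the most expressed transcript in place of the sum, and SMAD7 at -0.066 without transcripts listed at 0 in 1 condition. Only ID1 changed sign, in 3 of 8 alternatives. The 3 scalings shifted all values by at most 0.031. The number of members past 1 was 0, and it was also 0 under the 3 other filters, the pseudocount of 1, the threshold of 0.5 and the natural log, but SMAD7 passes when its most expressed transcript stands for the gene. The number of all genes past 1 (181) was 857 with the filter on mean FPKM at 0.1, 49 with it at 5, 1870 without a filter, 74 with a pseudocount of 1, 1270 at a threshold of 0.5 and 60 with a natural log. The 3 member transcripts past 1 became 6 with the filter at 0.1, 0 at 5 and 6 without a filter, and the 1760 of all transcripts became 4151, 339 and 6289. Medians of lists that moved were those of ligands (0.22, to -0.24 at 0.1 and 0.0012 at 5), ligand storage and activation (-0.29, to -0.15 at 0.1 and at 5, and -0.16 with a pseudocount of 1), other receptors (0.14, to -0.13 at 5), antagonists (0.33, to 0.096 at 0.1 and -0.26 at 5) and the non-SMAD branch (-0.095, to -0.20 at 5). Fewer or more genes enter under another filter; beyond that the cause was not tested.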

Other observations

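The length of the mature message and the number of exons both moved slightly with the direction of change across all genes. Of the 12334 genes kept, 83.7% were matched by symbol to a canonical GENCODE transcript on GRCh37. The median log2 fold change was 0.048 for the 2513 genes with an mRNA below 2000 bases and 0.0058 for those from 2000 to 4000. It was -0.037 for those from 4000 to 6000 and -0.045 for those of 6000 bases or more. From the shortest group to the longest, 42.3%, 48.9%, 56.0% and 57.7% were lower after SNRNP40 depletion. By exon number the median ran from 0.047 for genes with 1 exon to -0.023 for those with 10 or more. ID1 and ID3 have the shortest annotated messages of the members, at 983 bases in 2 exons and 950 bases in 3 exons. TGFB2, at 5868 bases, and TGFBR1, at 6492 bases, which had the largest decreases among the members kept, belong to the longer groups. SMAD3, at 6464 bases, was higher, and BMPR2, at 12068 bases in 13 exons, had 1 of the 2 decreases past 1 among the listed pathway genes kept. The other and larger of these, BHLHE40, has a message of 3152 bases. TGFB1, at 2780 bases, and SMAD2, with the longest annotated message of the members at 34626 bases, both had a log2 fold change of -0.32. The parts of message length and exon number in these differences were not tested. The models behind the deposited FPKM can differ from the current annotation.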
